A study of Homo sapiens with 6 samples.

Results

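The glucocorticoid receptor NR3C1, the closely related mineralocorticoid receptor NR3C2 and 8 genes known as their classic transcriptional targets were read by gene symbol from the expression table of a human podocyte line. Of the 10 genes named, 9 had a row among the 20745 genes of the table, and ZBTB16 was not analysed here. NR3C1 was among the most abundant transcripts, with a base mean of 1298, whereas NR3C2 lay in the lower part of the measured range with a base mean of 5.28. The base mean is the read count of a gene divided by the size factor of its library and averaged over all libraries of the authors' fit. The 7 targets with a row spread over a wide range between DUSP1, with a base mean of 1981, and PER1, with a base mean of 21.2.

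Cortisol and synthetic glucocorticoids enter the cell and bind NR3C1, which is held in the cytosol by a chaperone complex built on heat shock protein 90. The bound receptor moves to the nucleus, binds DNA as a dimer and raises or lowers the transcription of target genes. NR3C2 binds both aldosterone and cortisol and recognises the same DNA element. The podocyte is the epithelial cell that covers the glomerular capillaries, and glucocorticoids are the standard treatment of nephrotic syndrome, in which podocytes lose their foot processes. Levamisole, a drug against parasitic worms, can be given in this disease so that less steroid is needed, and the study asked, among other things, whether it acts on podocytes through NR3C1.

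The cells were AB 8/13, a single human podocyte line carrying a temperature-sensitive immortalizing gene, which was left to differentiate at the growth-restrictive temperature. Of the 6 cultures, 3 received vehicle and 3 received levamisole at 1 µM for 24 h, and each replicate came from another passage. The labels put both groups in medium without serum, while the methods put the vehicle cultures in complete medium, and the sources used here do not settle this. Libraries were made with an adapted CEL-seq protocol, in which cDNA is started at the poly(A) tail, so that reads fall near the 3′ end of a transcript.

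The base mean covers both groups together, and no value per culture was analysed here. For that reason no level has an SD or an n, the depth per library is unknown, and 0 comparisons between levamisole and vehicle were made. The table's fold changes and p-values are the authors' own comparison and were not used. The values below describe how much of each transcript was measured, not what levamisole did to it.

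How many libraries the base mean covers is not certain. In 6 libraries of equal depth, 3 reads make a base mean of 0.500. If depths differ a little, the 83 ways in which 1 to 3 reads can fall into 6 libraries give different base means. The table held 1714 genes (8.26% of all) below 0.500, down to 0.194, each with a different base mean. Over all genes of the table, 0 shared a base mean with another gene. The depth per library is unknown, and with unequal depth more than 3 reads can stay below 0.500. These values therefore do not fix the number of libraries, which may be more than 6. The levels of the receptors and targets are therefore described for the fitted libraries as a set, which may hold podocytes under conditions other than those of the 6 cultures.

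The receptors were measured at very different levels. NR3C1 (ENSG00000113580) lies on the minus strand of chromosome 5 of GRCh38, from 143277931 to 143435512. Its base mean of 1298 placed it 551st from the top of the table, at the 97.3rd percentile. NR3C2 (ENSG00000151623, chromosome 4, 148078762 to 148444698, minus strand) stood at place 13225, at the 36.3rd percentile, and its base mean of 5.28 was just above the minimum of 5 that was used to count a gene as measured. The NR3C1 base mean was 246 times that of NR3C2. Divided by the kb of exonic sequence, the union of all annotated exons, NR3C1 had 142 normalized counts per kb and NR3C2 0.800, a ratio of 177. Reads near the 3′ end need not grow in number with transcript length, so a value per kb is given beside each base mean as a second scale and not as a correction. NR3C2 had the lowest level of the 9 genes on both scales.

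The receptor proteins are nearly identical where they touch DNA. Translated from the Ensembl canonical transcripts, NR3C1 has 777 residues and NR3C2 has 984. In the stretch of 56 residues that holds both zinc fingers of the DNA-binding domain, 54 were identical (96.4%). After it, in the part that holds the steroid-binding domain, 56.1% of 301 aligned residues were identical, against 32.4% of 386 aligned residues before it.

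DUSP1, SGK1, KLF9 and FKBP5 were the targets measured at high levels. DUSP1 (ENSG00000120129, chromosome 5, 172768096 to 172771195, minus strand) encodes a phosphatase that switches off MAP kinases. It had the highest base mean of the 9 genes, 1981, at the 98.5th percentile. Its base mean was 1.53 times that of NR3C1. Per kb of exonic sequence the ratio was 6.94, a rise that comes from the division by 2.01 kb for DUSP1 and 9.16 kb for NR3C1. SGK1 (ENSG00000118515, chromosome 6, 134169248 to 134318112, minus strand), a kinase that acts on sodium transport, had a base mean of 401 at the 90.0th percentile. KLF9 (ENSG00000119138, chromosome 9, 70384604 to 70414657, minus strand), a zinc finger transcription factor, had a base mean of 314 at the 87.3rd percentile. These neighbours changed places per kb of exonic sequence, where KLF9 stood at 60.4 and SGK1 at 40.2, but not per kb of the longest transcript. FKBP5 (ENSG00000096060, chromosome 6, 35573585 to 35728583, minus strand) encodes the co-chaperone that binds heat shock protein 90 and lowers the affinity of the receptor for its ligand. Its base mean was 215, at the 82.3rd percentile.

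GLUL, TSC22D3 and PER1 lay closer to the median of all genes, and TSC22D3 and PER1 lay below the median of protein coding genes. GLUL (ENSG00000135821, chromosome 1, 182378098 to 182392206, minus strand) encodes glutamine synthetase and had a base mean of 69.7, at the 65.0th percentile. The annotation names 4 GLUL pseudogenes, and reads that match more than a single place can be lost to the count, so the GLUL level is uncertain. TSC22D3 (ENSG00000157514, chromosome X, 107713221 to 107777342, minus strand) encodes GILZ, the glucocorticoid-induced leucine zipper protein, which inhibits NF-kB and AP-1. It had a base mean of 28.7, at the 53.1st percentile. PER1 (ENSG00000179094, chromosome 17, 8140472 to 8156506, minus strand), a repressor of the circadian clock, had a base mean of 21.2, at the 49.7th percentile. Per kb of exonic sequence the levels were 5.51 for GLUL, 5.79 for TSC22D3 and 3.03 for PER1, beside a median of 5.53 over all genes. GLUL and TSC22D3 thus exchanged places between the scales and lay close to the middle of all genes on the scale per kb.

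**Figure D1:**
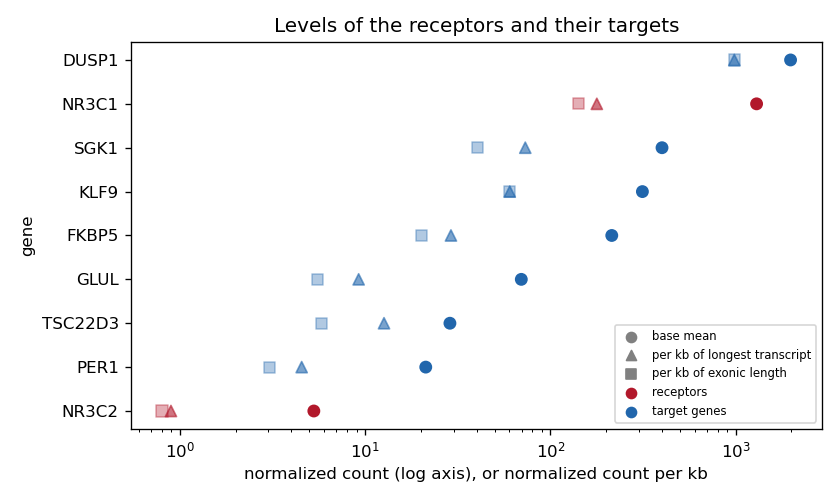
Base mean (circles), base mean per kb of the longest transcript (triangles) and per kb of exonic length (squares) of the 9 genes, on a log axis, with receptors in red and targets in blue; each point is a single pooled value without error. DUSP1 and NR3C1 lie highest and NR3C2 lowest on all 3 scales, while SGK1 and KLF9 swap places per kb of exonic length and GLUL and TSC22D3 on both scales per kb.

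As a list, the 9 genes had a median base mean of 215, against 21.8 over all 20745 genes and 66.2 over the 14455 protein coding genes. All 9 had a base mean of at least 5, which held for 64.3% of all genes and 81.9% of protein coding genes. Above the median of all genes stood 7 of the 9, and PER1 and NR3C2 stood below it. DUSP1 and NR3C1 together held 75.7% of the summed base means of the list. The list took 0.0683% of the summed base means of the table. For none of the 9 genes did another gene on the same strand cover any of the last 500 annotated exonic bases. Read positions were not available, so whether the reads fell in that stretch is unknown.

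**Figure D2:**
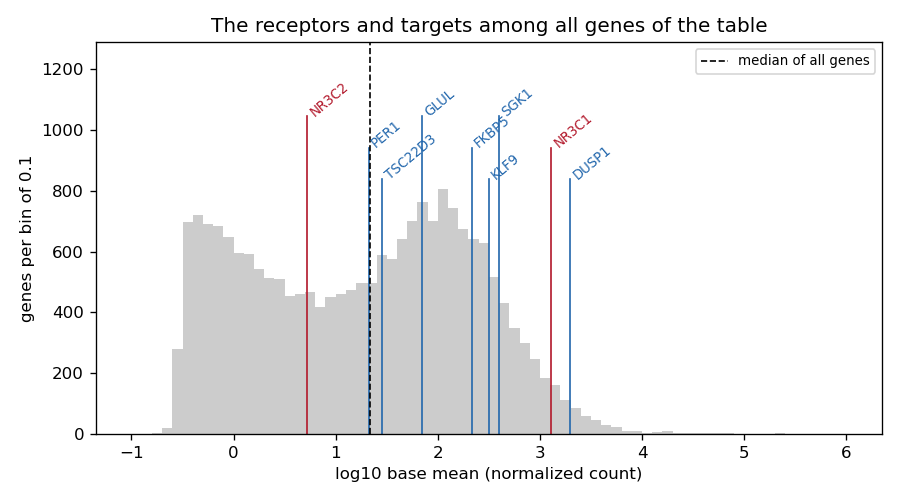
Number of genes (vertical axis) by log10 base mean in bins of 0.1 (horizontal axis) for all 20745 genes, with the 9 genes marked by lines (receptors red, targets blue) and the median of all genes dashed. NR3C1 and DUSP1 lie in the upper tail. TSC22D3 (28.7) lies just right of the median of 21.8, PER1 (21.2) just left of it and NR3C2 further left.

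The 13 listed chaperones and co-chaperones of the receptor complex all had a base mean of at least 5, as did 81.9% of protein coding genes, with a median of 333, from 26.96 for the cyclophilin PPID to 8017 for HSP90AB1, the constitutive heat shock protein 90. The 13 listed coregulators all had a base mean of at least 5 as well, with a median of 167, from 47.2 for the coactivator NCOA3 to 4256 for TRIM28. Per kb of exonic sequence the medians were 65.6 for the chaperones, 18.7 for the coregulators and 20.2 for the receptors and targets.

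The other steroid receptors examined had very low levels. The progesterone receptor PGR had a base mean of 1.09 and the oestrogen receptor ESR2 0.499, while ESR1 was not analysed here. Neither reached a base mean of 5. Of the enzymes that interconvert cortisol and cortisone, HSD11B2, which inactivates cortisol, had a base mean of 4.51, just below the minimum. H6PD, which supplies the cofactor of HSD11B1, had a base mean of 67.4, and HSD11B1 itself was not analysed here.

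A further list of 24 genes known to be induced by glucocorticoids in other cells was read in the same way. A row was found for 22 of them, and 19 of these (86.4%) had a base mean of at least 5. That share was near the 81.9% of protein coding genes, and 64.3% of all genes reached the same minimum. Their median was 124 as a base mean and 35.5 per kb of exonic sequence. The highest was CDKN1A, an inhibitor of cyclin-dependent kinases, with a base mean of 8222, and the lowest was HIF3A, with 0.369.

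The cell type label was checked against marker genes. Of 12 podocyte markers 9 had a row, and 8 of them (88.9%) reached a base mean of 5, near the 81.9% of protein coding genes. Their median base mean was 21.8, the same to that precision as that of all genes, and their median per kb of exonic sequence was 2.23, against 5.53 for all genes. ACTN4, an actin crosslinker that many cells express, was highest with 14320 and the receptor phosphatase PTPRO lowest with 0.333. The transcription factor WT1, a defining marker, had a base mean of 6.21, and the slit diaphragm gene NPHS1 was not analysed here. The other podocyte markers with a row were CD2AP (929), INF2 (214), SYNPO (22.8), PLA2R1 (21.8), PODXL (15.3) and TCF21 (7.20), all above WT1. No endothelial marker (3 of 6 had a row), mesangial marker (1 of 3) or leukocyte marker (2 of 4) with a row reached a base mean of 5. Of 5 proximal tubule markers 4 had a row, and only AQP1 reached a base mean of 5, with 243. The mesangial marker was PDGFRB, whose base mean of 4.14 was not far below that of WT1, so the count at 5 does not separate these 2 genes by much. In these bulk libraries, fewer cells expressing a gene and less RNA of it per cell cannot be told apart.

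**Figure D3:**
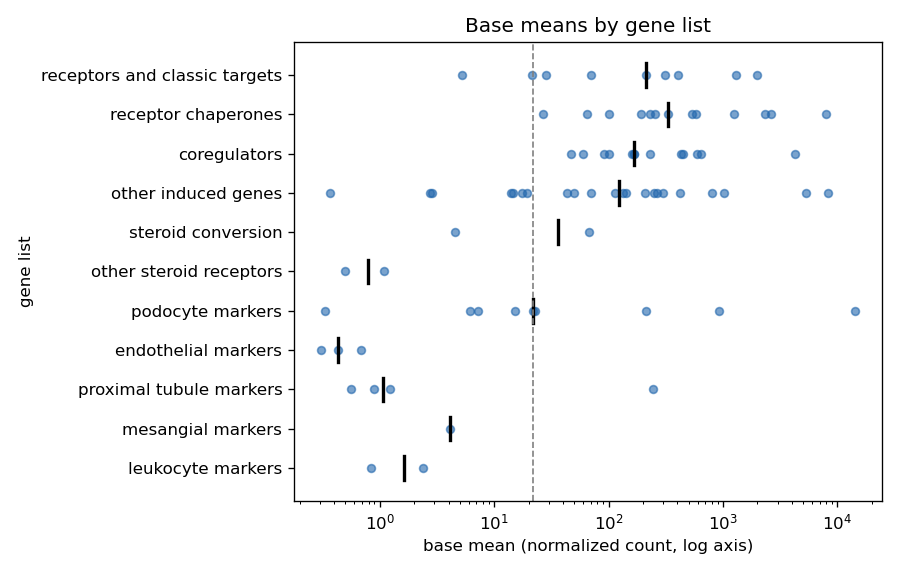
Base mean on a log axis for each gene with a row in the 11 gene lists; each point is a gene, the black bar the median of the list and the dashed line the median of all genes, 21.8. The chaperones (median 333) and coregulators (median 167) lie to the right of the line as a whole, the other steroid receptors to the left.

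The response element of the receptor was searched in the promoters of the genes. RefSeq promoters on GRCh38.p14, from 250 bases before to 50 bases after a start site, gave 25 windows for the 9 genes with a row. An exact match to the full element, the arms AGAACA and TGTTCT with any 3 bases between them, was in 0 of the 25 windows. It was in 1 of 35116 windows of all genes. So rare a match cannot set the 9 genes apart from all genes, and elements with other bases in the arms were not counted. The arm TGTTCT alone, on either strand, was in 2 of the 25 windows (8.00%), against 14.8% of all windows. Both matches were to the reverse complement and lay at or just past the start site of their window. They were in 1 of 2 FKBP5 windows (chr6:35728566-35728595) and 1 of 3 SGK1 windows (chr6:134177839-134177868). The SGK1 window belongs to a start site inside the annotated gene, whose 5′ end lies at 134318112. Both matches are shown on the minus strand, which is the strand of both genes, with the match in capitals.

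FKBP5: caccactaccccAGAACAaactcctacctc

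SGK1: ggggttcataacAGAACAgggatagccgtc

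By gene, 22.2% of the 9 genes and 17.5% of all 27305 genes had the arm in at least a single window. The windows are short, and elements further from the start site were not searched.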

How the data were processed

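RNA of 3 vehicle and 3 levamisole cultures (1 µM, 24 h) was sequenced from the poly(A) end (adapted CEL-seq). Per the labels and methods, the authors trimmed reads with Trim Galore 0.4.5, mapped them to GRCh38 (Ensembl release 95) with STAR 2.7.5a, counted them with HTSeq 0.11.0 and compared the groups with DESeq2 1.22.0. The methods also describe a mapping with BWA. The authors deposited a single table. Its base mean is a signal that the authors made by dividing each read count by a DESeq2 size factor and averaging over all libraries of their fit. The other 5 value columns hold the authors' own comparison (log2 fold change, standard error, Wald statistic, p-value and adjusted p-value) and were not used. Without values per culture no test was run, and depth per library and counting intervals are unknown.

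Genes were read by symbol. Percentiles give the share of genes at or below a base mean. Lengths and positions came from GENCODE 44 on GRCh38, the authors' assembly with a later annotation (20599 of 20745 identifiers matched). Exonic length is the union of all exons of a gene. The receptors were aligned with Biopython 1.88 (BLOSUM62) after translation of the longest reading frame. Python 3.11.15, NumPy 2.4.6, pandas 2.3.3 and matplotlib 3.10.9 were used, and ranks and lengths were tested on simulated data. The 10 genes and the lists were chosen with earlier results of these data known. All 10 genes were to be named, with the highest and lowest gene of each list and every reported gene of the lists of steroid receptors and steroid-converting enzymes. Results for some listed genes are not reported here, and these genes were left out of the lists. WT1, NPHS1 and the other podocyte markers with a row were named beyond that rule, after their values were seen.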

Additional observations from a re-analysis of the deposited data

How the results depend on the processing

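The ratio of NR3C1 to NR3C2, 246 as base means, was 177 per kb of exonic length and 199 per kb of the longest transcript. The list's share of all summed base means rose from 0.0683% to 0.105% without the 22 mitochondrial genes, which held 34.8% of the sum. All 9 genes reached a base mean of 5, as did 64.3% of all genes and 81.9% of protein coding genes. Of the 9, 8 reached 10 and 6 reached 50, the last a change of 1.5 times. The shares of all genes at 10 and 50 were not worked out, so these counts only describe the 9 genes. The percentile of GLUL was 65.0 among all genes, 45.6 among genes from a base mean of 5 upwards, 51.0 among protein coding genes and 49.9 per kb of exonic length. That of NR3C2 was 36.3, 0.840, 18.5 and 21.4 in the same order, that of TSC22D3 53.1, 27.0, 35.4 and 50.8, that of PER1 49.7, 21.8, 31.3 and 40.7, and that of NR3C1 stayed between 93.9 and 97.3. Of the 9 genes, 7 were above the middle of all genes, 5 were above that of genes from a base mean of 5 upwards and 6 on each of the other scales. No paired analysis was possible because the base mean is a single column over all libraries, and for the same reason no replicate was left out and no other normalization was tried. Of the 9 genes NR3C2 had the lowest base mean, so its level rests on the fewest normalized counts. A base mean near 5 does not show in how many of the fitted libraries the gene was read.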
